A study of Mus musculus with 4 samples.

Results

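Open chromatin at 9 genes of the megakaryocyte and its product, the platelet, was followed in 4 ATAC-seq libraries of mouse fetal liver: Itga2b, Itgb3, Gp1ba, Gp9, Gp6, Pf4, Vwf, Tubb1 and Fli1. A peak belonged to a gene when its summit lay in the gene body, or within 100 kb of the gene with that gene's end as the nearest end of any protein-coding gene. By this rule the 9 genes, of 21774 protein-coding genes in all, held 113 of the 160483 peaks in the 4 lists. Peaks that shared at least 1 bp were merged, which gave 43 regions at these genes of 55290 regions in all. 8 of the 9 genes had a peak in at least 1 library, and Gp6 had none.

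ATAC-seq marks open chromatin by the cuts of a transposase. The wild-type (WT) group was 2 libraries of embryonic day 14.5 fetal livers of WT mice, and the knockout group was 2 libraries of the same stage from hemogen KO mice, written Hemgn KO here after the gene's symbol. Hemgn encodes a nuclear protein of blood-forming cells, and the title of the series concerns its cooperation with BRG1, the ATPase of the BAF remodelling complex, in red cell formation. Neither the kind of knockout allele nor the strain is in the labels, which leave it unsaid if each replicate is its own embryo, so their spread may be technical.

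Megakaryocytes arise from a progenitor they share with red cells, and in the mid-gestation mouse the fetal liver makes both. They grow under thrombopoietin, fill alpha granules with clotting and adhesion proteins, and shed platelets from long microtubule-filled processes. Their genes are known to be driven by GATA1 with its cofactor FOG1, by ETS factors such as FLI1, and by RUNX1. No cell sort is named in the labels, so fewer cells of a type and less open chromatin in each cell cannot be told apart.

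The promoters of genes with a boundary peak in every library are printed first where the table holds one, because the boundary results on Gp1ba, Itga2b and Tubb1 turn on them. That of Gp9 is shown for contrast, since its boundary region lies outside the window. Pf4 was added after its values were seen, as the only other gene with a promoter entry and a boundary peak in any library. The sequences are from RefSeq, build GRCm38.p6, run 5′ to 3′ from 250 bases before to 50 bases after the transcription start, and carry in capitals each match, on either strand, to the letters AGATAA of GATA factors, to CGGAAG or AGGAAG of ETS factors, and to TGTGGT of RUNX factors.
Gp1ba (chr11:70638872-70639171, plus strand): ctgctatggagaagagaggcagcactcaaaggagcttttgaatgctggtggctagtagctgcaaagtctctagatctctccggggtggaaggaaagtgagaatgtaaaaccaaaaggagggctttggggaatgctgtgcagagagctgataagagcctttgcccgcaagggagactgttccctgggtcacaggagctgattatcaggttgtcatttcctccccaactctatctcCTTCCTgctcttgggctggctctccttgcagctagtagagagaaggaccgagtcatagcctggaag
Gp9 (chr6:87777820-87778119, plus strand): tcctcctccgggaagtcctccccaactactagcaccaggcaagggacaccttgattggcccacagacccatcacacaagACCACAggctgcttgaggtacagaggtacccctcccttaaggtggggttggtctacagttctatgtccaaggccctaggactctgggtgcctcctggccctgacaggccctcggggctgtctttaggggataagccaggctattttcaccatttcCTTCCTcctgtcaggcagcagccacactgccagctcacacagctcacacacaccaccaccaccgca
Itga2b (chr11:102469834-102470133, minus strand): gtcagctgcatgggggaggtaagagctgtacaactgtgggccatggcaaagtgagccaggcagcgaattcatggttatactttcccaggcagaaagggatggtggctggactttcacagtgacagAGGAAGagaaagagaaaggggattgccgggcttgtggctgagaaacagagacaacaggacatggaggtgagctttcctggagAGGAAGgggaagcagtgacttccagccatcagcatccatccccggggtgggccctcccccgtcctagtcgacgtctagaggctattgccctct
Tubb1 (chr2:174450345-174450644, plus strand): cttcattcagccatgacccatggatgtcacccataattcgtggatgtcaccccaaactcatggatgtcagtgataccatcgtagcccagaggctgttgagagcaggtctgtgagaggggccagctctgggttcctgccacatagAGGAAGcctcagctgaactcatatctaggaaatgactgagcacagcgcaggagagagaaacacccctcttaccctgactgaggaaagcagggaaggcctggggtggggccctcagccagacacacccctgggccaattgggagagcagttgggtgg
Pf4 (chr5:90772185-90772484, plus strand): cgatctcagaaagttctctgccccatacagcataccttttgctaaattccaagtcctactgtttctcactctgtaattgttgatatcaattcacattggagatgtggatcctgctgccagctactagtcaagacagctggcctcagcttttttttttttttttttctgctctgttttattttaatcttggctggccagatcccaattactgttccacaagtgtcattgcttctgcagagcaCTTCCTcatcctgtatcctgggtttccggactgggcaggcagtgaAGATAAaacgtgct

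The ETS letters AGGAAG occurred in all 5 of these windows and not in that of Gp6, and 35.4% of all 32851 promoter windows of the same length hold them. In Gp1ba, Gp9 and Pf4 the match began at bases 235, 235 and 242 of the printed window on the opposite strand, just before the start site, and Itga2b had matches from bases 126 and 208. CGGAAG was in none of the 5 windows and is in 16.9% of all windows. AGATAA was found in Pf4 (from base 287) and also in the Gp6 window, which is not printed, against 11.2% of all windows. Near forms of these letters were not searched, and the printed Gp1ba window holds TGATAA unmarked. TGTGGT was found once, in Gp9 (on the opposite strand, from base 80), against 16.8%. None of the matches of a printed window overlapped another. A match describes letters and no bound factor. RefSeq entries were found for 6 of the 9 genes; Vwf, Fli1 and Itgb3 had no entry in the table.

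In every library a peak spanned the whole printed window of Gp1ba and of Itga2b. At Tubb1 the peak of Hemgn KO replicate 2 spanned the window, and those of the other libraries overlapped its downstream part. The windows of Gp9 and Pf4 were touched only by a peak of WT replicate 1. The Gp9 region found in every library lies at the 5′ boundary that the gene table gives for Gp9, with its summit at -1994 from the start site of the printed window. The Gp6 window held no peak in any list.

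WT replicate 1 had 47858 listed peaks and WT replicate 2 had 34181, and the Hemgn KO lists held 35426 (replicate 1) and 43018 (replicate 2). A library's background, the fragments expected at a position with no enrichment, was recovered from the deposited values as 5.67, 2.29, 2.49 and 3.80 fragments in the same order and serves as relative depth. WT replicate 1 was therefore the deepest library. A peak at the library background needed a pileup of at least 15, 9, 9 and 12 fragments at its summit to be listed. The targeted gene Hemgn had 6 peaks in every library except WT replicate 2, which had 5, with a boundary peak in all 4 libraries, which says nothing about its product. Fetal liver erythroid markers had a boundary peak in all 4 libraries at 7 of 8 genes, against 48.5% of all protein-coding genes.

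The number of peaks at the 9 genes did not separate the genotypes. The WT lists gave 38 (replicate 1) and 19 (replicate 2), the KO lists gave 25 and 31, so both KO libraries lay between the WT libraries. The WT mean was 28.5 ± 13.4 peaks (SD, n = 2) and the KO mean 28.0 ± 4.24 (SD, n = 2), with an exact two-sided permutation p of 1 (the smallest p that 2 against 2 libraries allow is 0.333). The lowest number was in the library with the lowest background and the highest in the one with the highest. Per 1000 listed peaks the WT values were 0.794 and 0.556, and the KO values 0.706 and 0.721 (exact permutation p = 1). The sign of the KO minus WT difference in peaks, -0.5, turned when WT replicate 1 was left out (9) or Hemgn KO replicate 1 was (2.5), and it was -10 when WT replicate 2 was left out and -3.5 when Hemgn KO replicate 2 was.

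**Figure D1:**
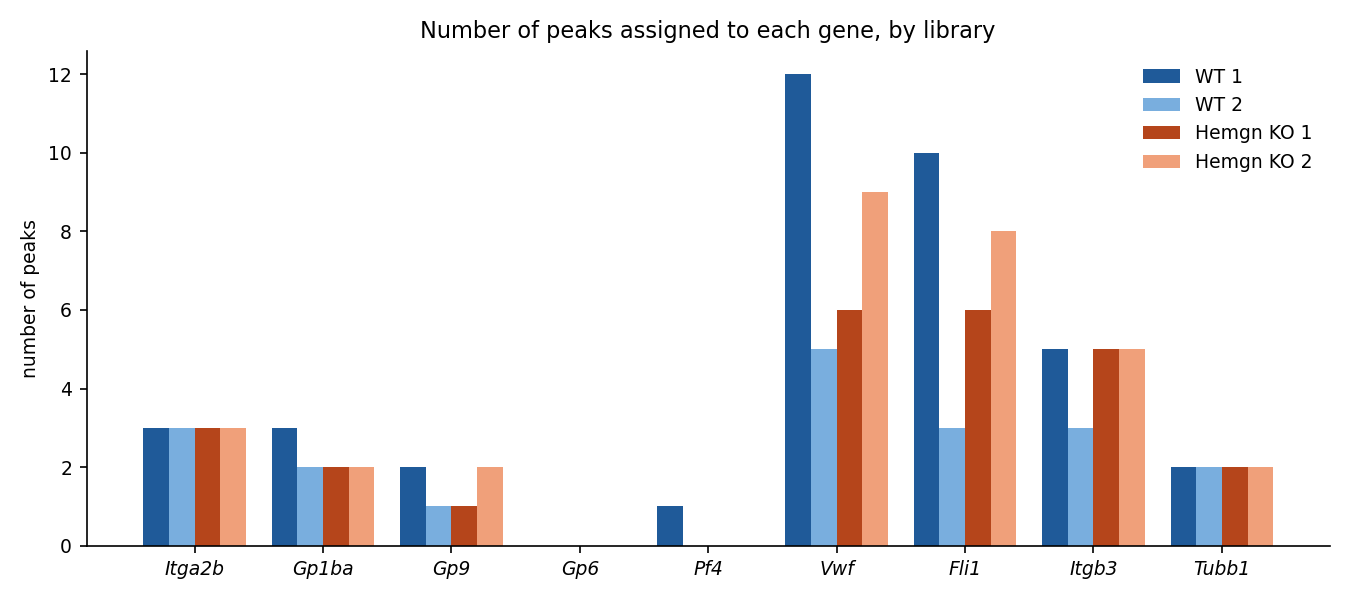
Number of peaks (vertical axis) assigned to each of the 9 genes (horizontal axis), with 1 bar for each library. Vwf and Fli1 hold the most peaks and differ most between libraries, with 12 and 10 in WT replicate 1 against 5 and 3 in WT replicate 2, while Gp6 has none.

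Fewer regions of these genes were found in every library than of all regions. 15 of the 43 (34.9%) had a peak in all 4 libraries, against a background of 49.7% over all regions. A further 8 were in 3 libraries (18.6%, against 11.8% of all regions) and 6 in 2 (14.0%, against 13.5%). In 1 library were 14 (32.6%, against 25.0%). Of those 14, WT replicate 1 alone held 10, and of all 13817 such regions it held 7157. Vwf, Fli1 and Itgb3, each over 60 kb long, had 7 of 31 regions in all 4 libraries, and the other genes had 8 of 12. By place, 5 of 8 regions at a gene boundary (summit within 1 kb of either end of the gene) were found in all libraries. Inside genes 9 of 26 were, and outside 1 of 9. No share over all regions is given for the splits by length and by place. Summits of a region found in all libraries lay within a median of 143 bp of each other (15 to 647), against 87.0 bp over all such regions.

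A boundary peak in all 4 libraries was present at 5 of the 9 genes (Itga2b, Itgb3, Gp1ba, Gp9 and Tubb1), or 55.6%, and 48.5% of all protein-coding genes have one. Pf4 and Vwf had a boundary peak in 1 library each and Fli1 in 2. Gp6 had no peak assigned at all, as do 25.2% of all genes.

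**Figure D2:**
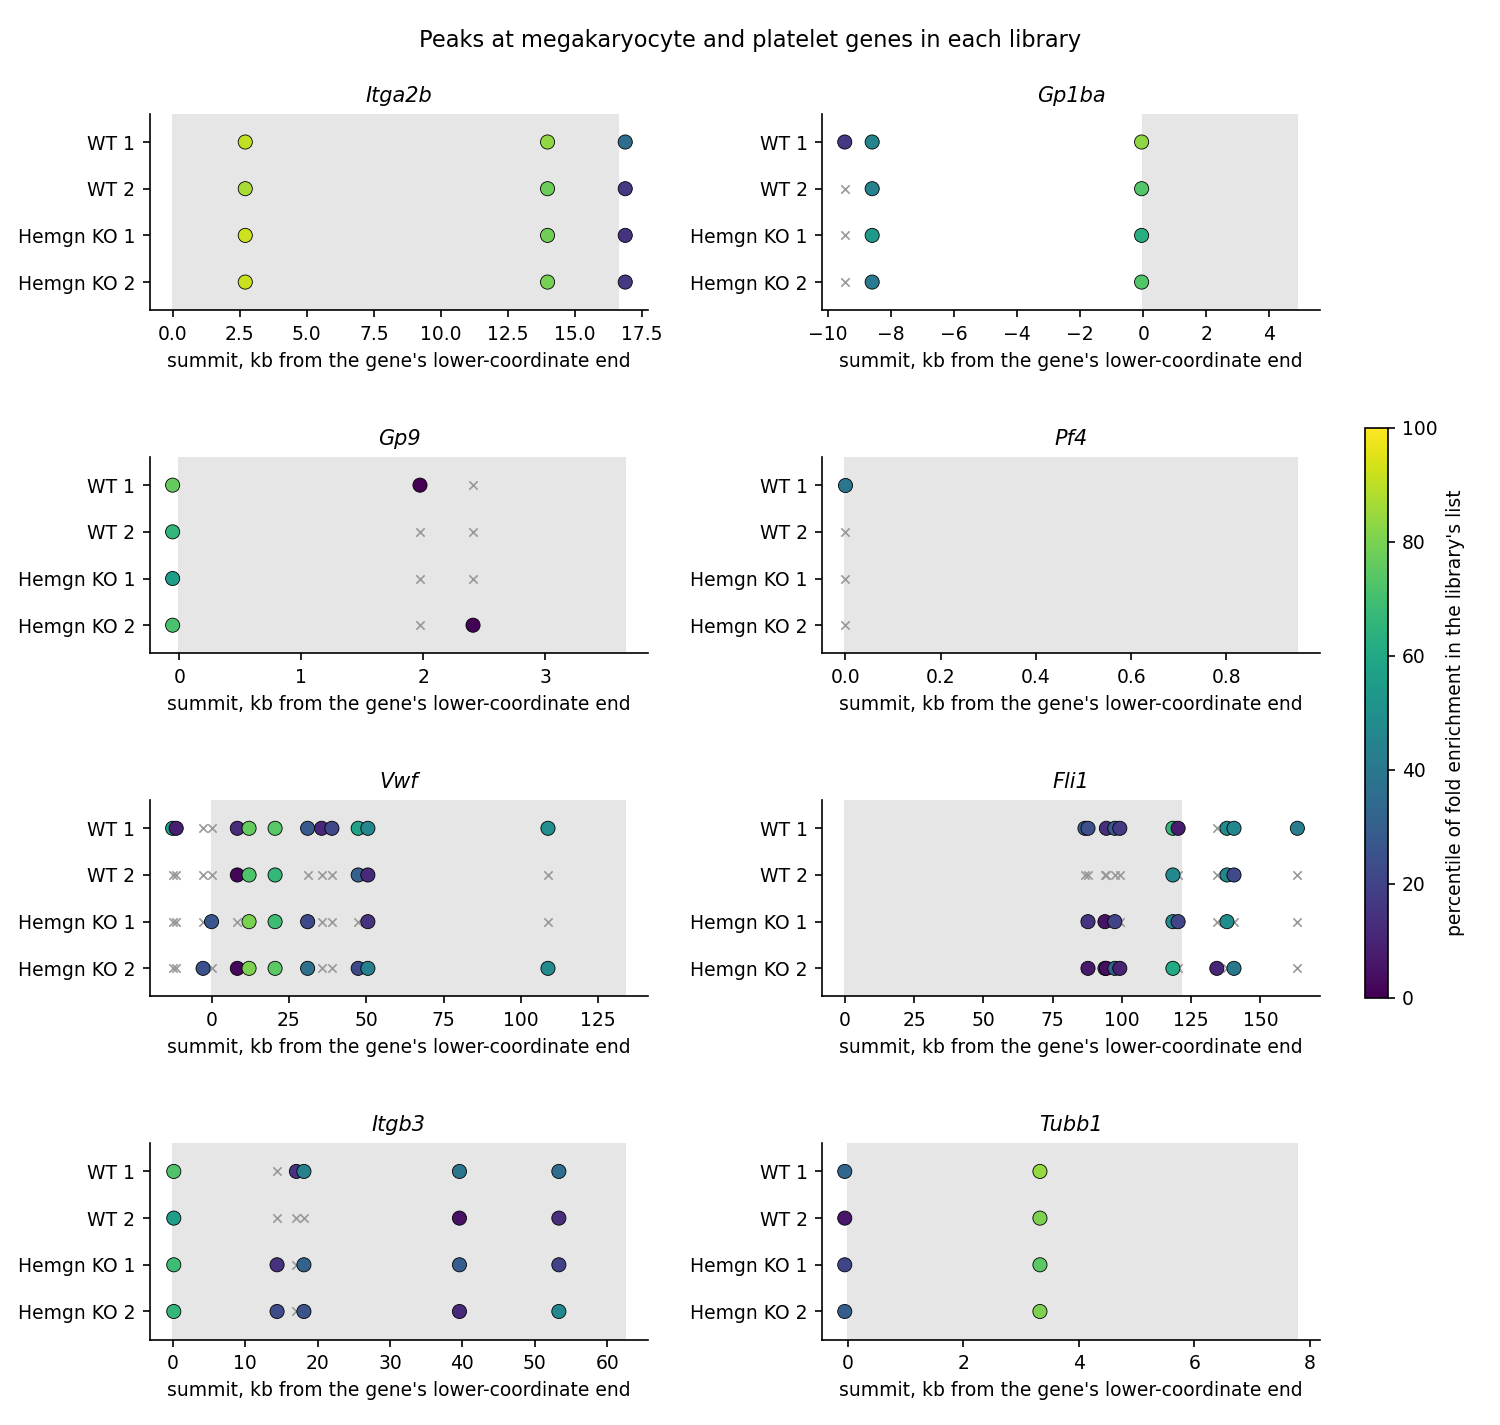
Position of each region's strongest summit for the 8 genes with a peak (horizontal axis, kb from the lower-coordinate end of the gene, shaded grey) in each library (rows). Circles mark a peak, coloured by the percentile of its fold enrichment in that library's list, and grey crosses mark regions with no peak in that library. Itga2b and Tubb1 carry their highest circles inside the gene, and Vwf and Fli1 show many regions that WT replicate 2 lacks.

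Values below are percentiles of the authors' fold enrichment within each library's own list, where 100 is the highest peak, always in the order WT replicates 1 and 2, then Hemgn KO replicates 1 and 2. Because the lists differ in length, genotypes were compared by the percentile among the 27473 regions found in all 4 libraries, which is the same set for each library.

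Itga2b encodes the alpha subunit (CD41) of the platelet fibrinogen receptor and also marks early blood progenitors of the embryo. It had 3 regions, all present in every library. The strongest was inside the gene, 2.71 kb from its far end (chr11:102455596-102456460), with percentiles of 90.3, 86.9, 92.5 and 91.8. Among regions found in all libraries it ranked at 83.1 and 83.8 in WT and at 90.3 and 87.2 in KO, so both KO libraries were above both WT libraries. That order held in all 9 alternatives that kept every library, of which those that changed only the assignment distance could not alter it. A further region inside the gene, 2.61 kb downstream of the start (chr11:102466937-102467785), had percentiles of 83.4, 77.6, 78.1 and 79.5, and its genotypes overlapped.

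The Itga2b promoter region (chr11:102469493-102470455), which contains the printed window, was far lower by fold, with percentiles of 35.3, 16.7, 14.2 and 17.0. Pileup at its summit was nonetheless 135, 50, 50 and 69 fragments. The local background at that place was 32.1, 12.1, 13.6 and 19.7 fragments, between 5.17 and 5.67 times the library background. By the authors' −log10 q the same region stood at percentiles of 62.0, 45.3, 44.1 and 49.2. Fold and −log10 q thus placed this region differently in their lists. Among regions found in all libraries the promoter ranked lower in both KO libraries (7.03 and 4.86) than in both WT libraries (9.67 and 9.31), an order that was lost with lists of equal length and with percentiles in the whole list.

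Itgb3 encodes the beta subunit that pairs with the Itga2b product and also forms the vitronectin receptor of other cells. Its boundary region (chr11:104607601-104608641) had percentiles of 71.9, 55.8, 68.7 and 65.7. Ranks among regions found in all libraries were 51.7 and 45.7 in WT against 59.7 and 47.1 in KO, so the genotypes overlapped. Summit pileup there was 68, 22, 46 and 46 fragments. Inside the gene, 2 weaker regions were found in every library. The one 22.9 kb from the nearest end had percentiles of 38.7, 4.54, 29.0 and 11.3, with overlapping genotypes. The one 9.16 kb from the nearest end had percentiles of 35.3, 13.1, 19.8 and 46.6, and its ranks among regions found in all libraries were 9.65 and 7.05 in WT against 9.95 and 23.6 in KO, an order lost by q and in 3 other settings.

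Gp1ba encodes the chain of the GPIb-IX-V complex that binds von Willebrand factor, and it is mutated in Bernard-Soulier syndrome. Its promoter region (chr11:70638468-70639756) spanned 1289 bp and had percentiles of 83.1, 73.3, 62.6 and 73.0. Ranks among regions found in all libraries were 70.6 and 66.8 in WT against 51.9 and 57.9 in KO, so both KO libraries were below both WT libraries. This order held in all 9 alternatives that kept every library, of which those that changed only the assignment distance could not alter it. Pileup at the summit was 185, 75, 51 and 102 fragments. The highest was in WT replicate 1 and the lowest in Hemgn KO replicate 1, and pileup overlapped between genotypes. A region 8.60 kb away (chr11:70630291-70630798) had percentiles of 44.6, 43.9, 53.6 and 40.7, and its genotypes overlapped.

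Gp9 encodes the small chain that the same complex needs to reach the surface. Its boundary region (chr6:87775730-87777087) had percentiles of 76.2, 65.4, 55.1 and 71.4. Ranks among regions found in all libraries were 58.9 and 57.1 in WT against 42.6 and 55.5 in KO, with both KO libraries below both WT libraries. The margin between WT replicate 2 and Hemgn KO replicate 2 was narrow, and the order was lost with percentiles in the whole list. Summit pileup was 343, 128, 95 and 179 fragments over a local background between 5.38 and 6.20 times that of the library. Near the RefSeq start site of the printed window WT replicate 1 had a peak at percentile 0.169, and 1 other region inside the gene had a peak only in Hemgn KO replicate 2, at 0.693.

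Gp6, the platelet collagen receptor that signals through the Fc receptor gamma chain, had 0 peaks in each of the 4 lists. A missing peak says that no place passed the authors' threshold at these depths, and not that the chromatin is closed.

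Tubb1 encodes the beta tubulin of the platelet's marginal band. Its strongest region lay inside the gene, 3.33 kb downstream of the start (chr2:174453424-174454345), with percentiles of 84.3, 80.3, 74.4 and 80.5. Ranks among regions found in all libraries were 72.7 and 75.6 in WT against 67.1 and 69.5 in KO, so both KO libraries were lower, an order lost with percentiles in the whole list. The promoter region (chr2:174450336-174450792), which overlaps the printed window, went the other way and was weak, with percentiles of 33.2, 6.04, 20.4 and 29.7. Its ranks were 8.63 and 3.35 in WT against 10.4 and 10.5 in KO, and that order was lost by q and in the whole list. As at Itga2b, pileup of 117, 36, 41 and 80 fragments stood on a local background between 4.03 and 5.05 times that of the library.

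**Figure D3:**
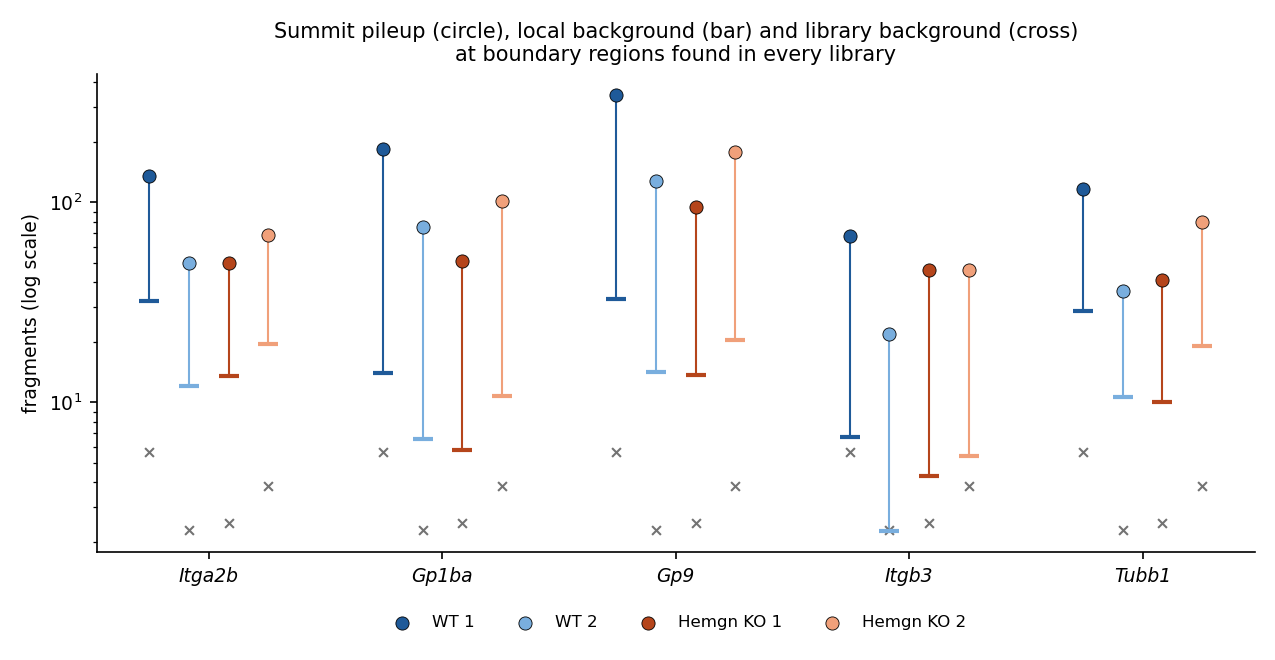
Fragments at the summit (circles), the local background of the peak (bars) and the background of the library (grey crosses) on a log axis, for the 5 boundary regions found in every library. Local background at Itga2b, Gp9 and Tubb1 lies well above the library's, while at Itgb3 in WT replicate 2 both are 2.29 fragments.

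Pf4 encodes platelet factor 4, an alpha-granule chemokine that is a classical megakaryocyte marker. Its only region lay over the start site (chr5:90772160-90772883), with a peak in WT replicate 1 alone, at percentile 38.7. The pileup was 28 fragments on the library background of 5.67. WT replicate 2 and both KO libraries had no peak there.

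Vwf encodes von Willebrand factor, the adhesive multimer that megakaryocytes and endothelial cells make. It had 13 regions, the most among the 9 genes, of which 3 were found in every library, all inside the gene and none at its boundary. The strongest, 12.1 kb from the nearest end (chr6:125564534-125565621), had percentiles of 76.2, 72.2, 79.8 and 80.2. Ranks among regions found in all libraries were 58.9 and 65.4 in WT against 74.0 and 69.1 in KO, with both KO libraries higher, and the order was lost by q. The next, 20.5 kb from that end (chr6:125572340-125573942), had percentiles of 73.9, 66.5, 68.8 and 74.3. Its ranks were 55.0 and 58.4 in WT against 59.8 and 59.9 in KO. By q the order at this region turned, with both KO libraries lower than both WT libraries. The order was also lost with percentiles in the whole list.

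At the boundary of Vwf, Hemgn KO replicate 1 alone had a peak (percentile 26.9, pileup 14 fragments). The third region found in every library, 50.5 kb from the nearest end (chr6:125603266-125604707), had percentiles of 45.7, 11.9, 14.4 and 43.3, high in the deeper library of each genotype. Of the 13 regions 6 were in 1 library only. Of 9 markers of endothelial cells, the other source of this protein, 3 had a boundary peak in all libraries, against 48.5% of all genes. The summed peaks of the 9 markers were 31 and 20 for WT and 24 and 32 for KO. Emcn and Egfl7 had no boundary peak in any library. The part of endothelial cells in the Vwf result was not tested.

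Fli1 encodes an ETS factor needed for megakaryocyte maturation, and endothelial and other blood cells express it as well. It had 12 regions and 10, 3, 6 and 8 peaks. Only 1 region was found in every library, 2.83 kb inside the gene from its nearest end (chr9:32540172-32541366), with percentiles of 66.7, 47.1, 46.9 and 60.5. Genotypes overlapped there by fold, and the deeper library of each genotype was higher. Ranked by q among regions found in all libraries, both KO libraries were above both WT libraries at this region. Near that end, within 1 kb, WT replicate 1 and Hemgn KO replicate 1 had a weak peak (percentiles 7.96 and 21.0). A cluster of 6 weak regions deeper in the gene had 0 peaks in WT replicate 2.

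Regions with peaks in both libraries of a genotype and in neither of the other were KO-only at 2 of the 43 regions (4.65%), where 1.41% of all regions are KO-only, and WT-only at 0, where 2.2% are. The KO-only region in Fli1 (chr9:32516038-32516334) had percentiles of 4.71 and 23.2, with summit pileups of 11 and 24 fragments. WT replicate 1 had a peak 219 bp away, and the region counted as found in WT when peaks up to 500 bp apart were merged. The KO-only region in Itgb3 (chr11:104622172-104622573) had percentiles of 14.4 and 22.9, with pileups of 14 and 23 fragments, and the nearest WT peak was 2296 bp away. Their percentiles thus ran from 4.71 to 23.2. With a −log10 q of at least 5 required of every peak, 0 KO-only regions were left, where 0.829% of all regions were KO-only. The KO-only count was 6 of 33 when WT replicate 1 was left out, where 8.25% of all regions were KO-only. It was 5 of 43 without Hemgn KO replicate 1, where 8.83% were. The WT-only count was 10 of 43 when WT replicate 2 was left out, where 15.5% of all regions were WT-only. It was 3 of 40 without Hemgn KO replicate 2 (7.61% of all) and 1 of 43 without Hemgn KO replicate 1 (3.19%).

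Of the 15 regions found in every library, 5 (33.3%) ranked higher in both KO libraries than in both WT libraries, and 19.2% of all such regions do. A further 4 (26.7%) ranked lower in both KO libraries, against 20.4% of all. The 6 others overlapped. The number that ranked higher was 8 of 15 when WT replicate 1 was left out, where 33.3% of all such regions did. It was 9 of 16 without Hemgn KO replicate 2, where 37.1% did. No p under 0.333 can be had for any of them. Boundary regions of Gp1ba, Gp9 and Itga2b were among the 4 lower ones, with the internal region of Tubb1. The higher ones were internal regions of Itga2b, Vwf (2 regions) and Itgb3, with the promoter region of Tubb1. Ranked by q, 2 were higher and 5 were lower, against 22.3% and 22.4% of all such regions. The 2 higher by q were the strongest Itga2b region and the Fli1 region, which overlapped by fold. By percentile in the whole list 2 were higher and 1 lower, against 9.98% and 13.6% of all such regions. Only the internal Itga2b region and the Gp1ba promoter kept their order through all 9 alternatives with every library. These alternatives reuse the same libraries, and those that changed only the assignment distance could not alter an order.

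**Figure D4:**
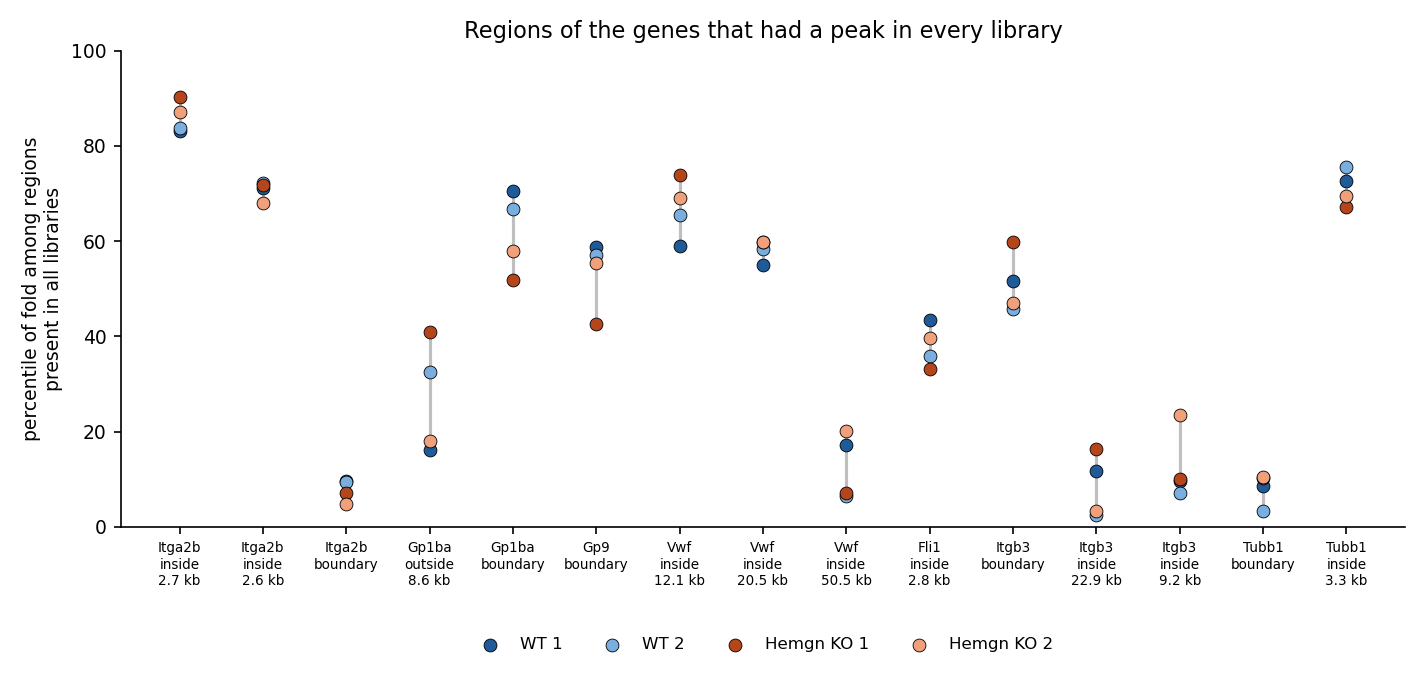
Percentile of fold (vertical axis) among the regions present in all libraries, for the 15 regions of these genes found in every library, with 1 point for each library and a grey line over their range. Labels give the gene, the place and, away from a boundary, the distance to the nearest end of the gene. KO points lie above WT points at the first Itga2b region and below them at the Gp1ba boundary, and the points mix at the Fli1 region.

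Other genes of the megakaryocyte programme were read the same way, from 5 lists of 45 genes. Of the 45, 24 had a boundary peak in every library (53.3%, against 48.5% of all genes), and 11 had none in any. They held 257 regions, of which 118 (45.9%, against 49.7% of all regions) were found in every library.

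Thpo (thrombopoietin, made by hepatocytes) had a boundary peak in every library, with percentiles of 67.6, 58.8, 35.9 and 62.7. Among 13 genes for other complex subunits and surface receptors 7 had a boundary peak in all libraries. They included P2ry1, an ADP receptor, at 88.4, 87.2, 82.0 and 85.7. Clec1b, the receptor for podoplanin, had no region in any library. Of Gp1ba's partners, Gp1bb had 2 regions and Gp5 had 1, all found in every library, with a boundary peak in 1 library at Gp1bb and in none at Gp5.

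Among 12 genes for granule contents and assembly, a list that also holds the transcriptional repressor gene Gfi1b, 6 had a boundary peak in every library. Vps33b, which encodes a protein of alpha-granule formation, was the strongest, at 98.3, 96.3, 98.0 and 98.1. The chemokine gene Ppbp, next to Pf4 on the chromosome, had no region in any library. Thbs1 and Serpine2 each had 1 region, found in all 4. Among 8 signalling and cytoskeleton genes 5 had such a peak, among them Tln1 (talin, which activates integrins) at 82.7, 82.1, 81.8 and 84.2.

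The 10 transcription factor genes held the most regions of these lists, 122, of which Zfpm1 (FOG1) held 24 and Runx1 held 22. Numbers of regions were not set against gene length. Boundary peaks in all libraries were at 5 of the 10. Nfe2, needed for platelet shedding, had percentiles of 47.0, 31.2, 32.6 and 42.9 at its boundary. Gata1 had 5 regions, 3 of them in all libraries, with no boundary peak.

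Exclusive regions in the wider lists were 2 WT-only and 4 KO-only of 257, where 2.2% and 1.41% of all regions are. The strongest was KO-only, near the coagulation factor V gene F5, 4794 bp from its end (chr1:164224632-164225119), at percentiles of 67.7 and 69.0 in the KO libraries. The other KO-only ones were at Myh9, Runx1 and Zfpm1, with percentiles between 0.0311 and 31.8. The WT-only ones were at F2rl2 (25.3 and 6.86) and Ets1 (2.96 and 18.6).

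**Figure D5:**
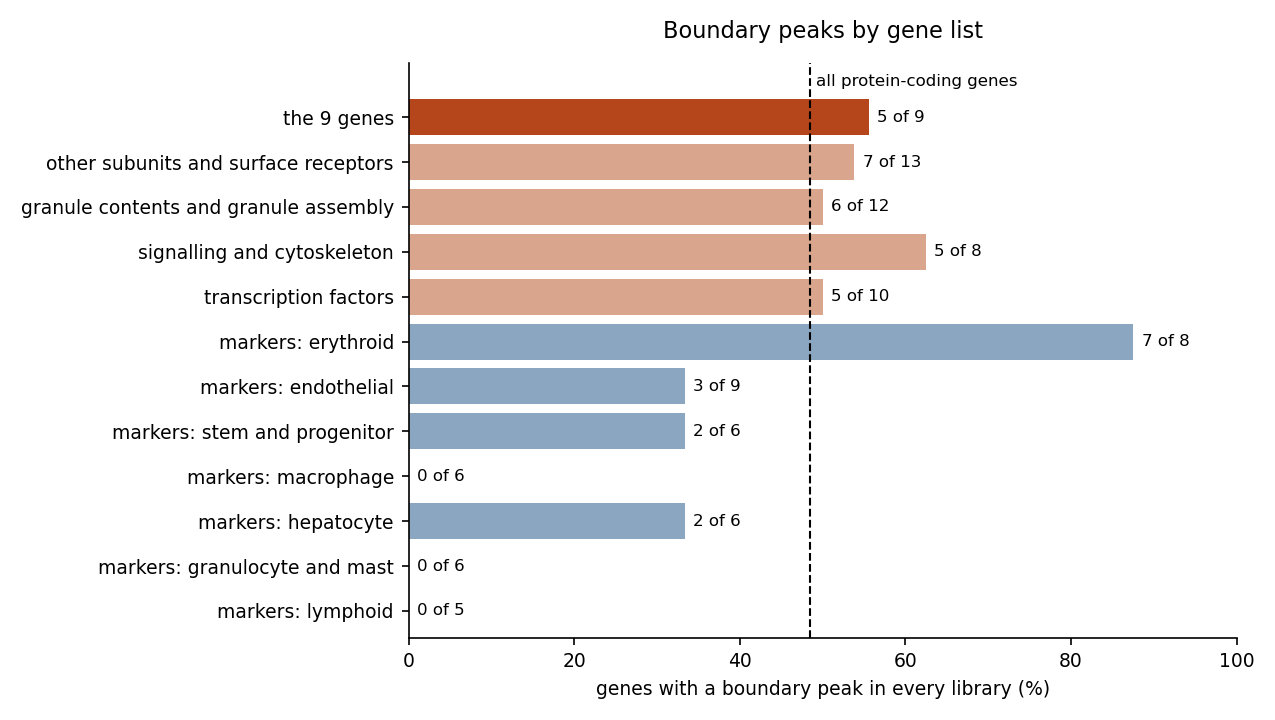
Share of genes with a boundary peak in every library (horizontal axis, %) for the 9 genes, for 4 of the wider megakaryocyte lists and for markers of other cell types, with the number of genes beside each bar. The dashed line is the share of all protein-coding genes, 48.5%, and these 4 lists lie between 50% and 62.5%, below the erythroid markers at 87.5%.

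Marker lists of other cells in the liver gave a boundary peak in all 4 libraries at 2 of 6 stem and progenitor genes, 2 of 6 hepatocyte genes, and at 0 of 6 macrophage, 0 of 6 granulocyte and mast cell and 0 of 5 lymphoid genes. Of all protein-coding genes 48.5% have such a peak. The stem and progenitor list, whose cells share Itga2b, Vwf and Fli1 with megakaryocytes, held 25 and 16 peaks for WT, then 20 and 25 for KO. Its part in the results on those genes was not tested.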

How the data were processed

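Per the labels, an Omni-ATAC protocol was run on about 50000 cells per library. The tools named in the submitters' processing notes are MACS2 2.2.7.1, Picard 2.21.4, Bowtie2 2.3.5 and SAMtools 1.9, with no roles or settings. Which genome build they used is not stated in any label or header read here. The authors deposited 1 peak list per library, none pooled. The median ratio of the deposited score to the −log10 q was 9.98. The deposited fold is the authors' ratio of summit to background in that library, and each peak also has the −log10 p and −log10 q that the authors deposited (highest q 0.0489), with the offset of its summit.

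Peaks on the 19 autosomes, X and Y entered. The whole pileup and background that return both the fold and the −log10 p (tolerance 0.001, assuming MACS2's usual formula with 1 added to both) were solved for the members' peaks, unless their −log10 p was 250 or more, and for a sample of 4837 to 6479 weaker peaks per library. The most frequent background in that sample served as relative depth, since a peak list states no depth. On 500 simulated peaks of low pileup and background 100% were recovered. Local backgrounds at the Itga2b, Gp9 and Tubb1 boundary regions were above those simulated. So were those at the Gp1ba boundary region, except in Hemgn KO replicate 1, and at the Itgb3 boundary region in WT replicate 1. That check does not cover these values. Gene ends came from RefSeq GRCm38.p6. From 27.8% to 35.3% of the summits fell within 1 kb of one, against 6.67% to 6.88% after a 50 kb shift. Region positions are those of the deposited peaks, 1-based. A region's value in a library is that of its strongest peak.

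Library values were compared by exact permutation (Python 3.11.15, SciPy 1.17.1). Deviations of same-numbered libraries had a weak negative correlation (-0.14 over 27473 regions). With 2 libraries per genotype this cannot show if the numbers mark pairs, and they were not taken as pairs in the main results. Members, gene lists and tests were chosen with earlier results of these data known. The text names all 9 genes, their boundary region, their strongest other region and every exclusive region. Of the wider genes it names examples for each list, some chosen after their values were seen, and 1 gene of those lists is not reported here. Alternatives were other distances, list lengths, thresholds, merging and ranks, and leaving out each library.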

Additional observations from a re-analysis of the deposited data

How the results depend on the processing

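The KO minus WT difference in the number of peaks turned from -0.5 to 1.5 with peaks in the gene body and 1 kb around it, to 1.5 with lists of equal length by fold, to 2.5 with lists of equal length by q, and to 0.0382 per 1000 peaks of the list (chosen after seeing the data), and ran from -10 to 9 as each library was left out. With the replicate block it stayed at -0.5 (exact sign-flip permutation p = 1, smallest possible 0.5). With the numbers crossed, a pairing added after seeing the data, 0 calls were made as well. KO-only regions numbered 4 of 33 with lists of equal length by fold (2.25% of all regions) and 0 of 32 with a −log10 q of at least 5 (0.829%). They numbered 1 of 41 with a gap of up to 500 bp (1.41%), and 2 to 6 as each library was left out (1.73% to 8.83%). WT-only regions numbered 0 to 10 as each library was left out (3.19% to 15.5% of all regions), the highest without WT replicate 2. Regions ranked higher in KO numbered 2 by −log10 q, where 22.3% of all regions found in every library did. They numbered 2 by percentile in the whole list (9.98% of all) and 7 to 9 without 1 library (31.5% to 37.1%). Those ranked lower numbered 1 in the whole list (13.6% of all). With 3 libraries fewer peaks are needed for each of these calls. Regions found in every library, and genes with a boundary peak in every library, stayed within 1.5 times their number in all 11 alternatives. WT replicate 2 and Hemgn KO replicate 1 had the lowest backgrounds and the shortest lists, and the part of depth in what was found in every library was not tested.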
